A study of Mus musculus with 122 samples.

Results

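Mouse embryonic stem cells transcribe a set of genes that the germ line uses for meiosis and for the silencing of transposons. Here 48 such genes were described, chosen by name from a list of meiotic and germline genes, out of 52459 genes in the normalized RNA-seq count table. The list holds 4 meiotic cohesin subunits, 7 components of the synaptonemal complex, 15 recombination genes, 3 genes of telomere attachment, 6 germ cell regulators, 9 germline defence genes and 4 other testis genes. The rule used no measured value, although the list was drawn up with earlier results of these data known. Every gene of the list was read in all 4 RNA-seq lines and 4 conditions, and its promoters were searched for peaks of the FLAG-tagged transgenes and of the cohesin subunit RAD21.

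The cells were E14Tg2a embryonic stem cells in which both endogenous Ctcf alleles carry an auxin-inducible degron (AID) and eGFP, Tir1 is expressed from Rosa26, and a doxycycline-inducible, FLAG-tagged transgene with mRuby2 sits at both Tigre alleles. These alleles were shared by every group, the untreated controls included. Cells were untreated (U), given the auxin IAA to degrade CTCF (I), given doxycycline to induce the transgene (D), or given both (ID). The transgene was CTCFL in the first line, CTCF in the second, LCL in the third and CLC in the fourth. LCL joins the CTCFL N terminus and C terminus to the CTCF zinc fingers, and CLC joins the CTCF termini to the CTCFL zinc fingers. The FLAG ChIP-seq sets also include the chimeras CLL and LLC, named in the same order of N terminus, zinc fingers and C terminus. The sample labels give 24 h of treatment (48 h for the FLAG sets of CLL and LLC), whereas the protocol text gives 2 days. Single colonies were picked and expanded to make the lines, so that a line effect and a clone effect cannot be told apart.

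CTCFL, also called BORIS, is the testis paralog of CTCF, and it is normally restricted to male germ cells before meiosis. Both proteins bind DNA through similar zinc fingers but differ in their termini. In meiosis, cohesin complexes with germline subunits organize chromosomes into loops along an axis, double-strand breaks are made and repaired against the homolog, and the synaptonemal complex joins the homologs. Germline defence genes act mainly in the piRNA pathway, in which PIWI proteins and Tudor-domain proteins silence transposons. In embryonic stem cells many of these genes are held down by DNA methylation and by the PRC1.6 complex, in which MGA binds E-boxes, and yet a low to moderate level of their RNA is common in culture.

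The RNA-seq table holds 38 libraries. The CTCFL line has 3 libraries each of U, I and D and 2 of ID, the CTCF line has 2 of U and 3 each of I, D and ID, and the LCL and CLC lines have 2 of each condition. Reads recovered from the table ran from 6847072 to 49716771 a library, with a median of 26013021, in 36 of the libraries. Ctcfl RNA, which carries the transgene's reads, rose from 208 ± 16.5 in U to 8244 ± 1005 in D and 5514 ± 83.0 in ID of the CTCFL line, from 31.8 ± 6.59 to 400.0 ± 22.8 in D and 1172 ± 74.2 in ID of the LCL line, and from 42 ± 0.955 to 1810.3 ± 26.8 and 2992 ± 634 in the CLC line (mean ± SD of normalized counts over the libraries of each group). LCL RNA was thus higher in ID than in D, and the part of that in the results below was not tested. Ctcf RNA does not check the loss of the CTCF protein, which is degraded after translation. It does not check the CTCF transgene either, because endogenous and transgene reads are not separated in it. Total Ctcf RNA was not higher in D (4702 ± 15.1 in U and 3748 ± 172 in D of the CTCF line). The study shows the induced CTCF transgene as protein, by western blot with a FLAG antibody. All 10 pluripotency markers were expressed. Nothing in the labels says that replicates were separate cultures, so p-values measure the spread between these libraries, which may be technical. In bulk RNA, fewer cells that express a gene and less of its RNA per cell cannot be told apart.

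Of the genes with both a CTCFL peak in D cells and a called change in RNA in any line and comparison, 4 of the 48 are shown. The sequences below are the FLAG CTCFL summits at their promoters. Each is the 121 bases centred on the summit of the stronger replicate, in GRCm38, written along the gene's strand. Capitals mark the letters AGNGGGC, a core of the CTCF motif, on either strand. Rec8, Mei4 and Dazl are the genes with a CTCFL site among the 20 with the largest changes in RNA, and Sycp2 was added after its values were seen. Tex15 and Tex19.1 also had both a peak and a call and are not shown. In CTCFL D against U only Sycp2 was called (log2 fold change 1.03), with Rec8 at 0.69, Mei4 at 0.04 and Dazl at 0.03.

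Sycp2 (chr2:178407649-178407769, minus strand): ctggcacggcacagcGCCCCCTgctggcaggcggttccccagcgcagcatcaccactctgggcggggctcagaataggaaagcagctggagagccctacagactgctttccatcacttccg
Rec8 (chr14:55617996-55618116, plus strand): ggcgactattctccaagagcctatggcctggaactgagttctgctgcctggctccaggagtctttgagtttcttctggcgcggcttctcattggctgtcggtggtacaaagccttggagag
Mei4 (chr9:81863667-81863787, plus strand): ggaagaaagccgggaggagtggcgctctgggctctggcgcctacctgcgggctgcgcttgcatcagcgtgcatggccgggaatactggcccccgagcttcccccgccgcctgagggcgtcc
Dazl (chr17:50292942-50293062, minus strand): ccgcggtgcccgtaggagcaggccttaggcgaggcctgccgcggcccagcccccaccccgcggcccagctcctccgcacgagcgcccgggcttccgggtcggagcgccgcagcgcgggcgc

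The Sycp2 window held 1 match to AGNGGGC, and the Rec8, Mei4 and Dazl windows held 0. A second set, below, holds 3 promoters of genes that fell in LCL ID cells. They were chosen after values were seen, as the 3 genes with the lowest log2 fold change in LCL ID against I whose RefSeq promoter holds the E-box CACGTG. Each runs from 250 bases before to 50 bases after the RefSeq start, on GRCm38, along the gene's strand, with CACGTG in capitals.

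Tex12 (chr9:50561219-50561518, minus strand): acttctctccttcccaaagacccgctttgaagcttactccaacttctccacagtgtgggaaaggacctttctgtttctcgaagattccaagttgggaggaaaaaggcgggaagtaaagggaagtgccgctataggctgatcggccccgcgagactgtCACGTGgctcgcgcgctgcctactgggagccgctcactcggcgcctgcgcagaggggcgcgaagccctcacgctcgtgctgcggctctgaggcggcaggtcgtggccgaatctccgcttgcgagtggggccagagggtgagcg
Mael (chr1:166238695-166238994, minus strand): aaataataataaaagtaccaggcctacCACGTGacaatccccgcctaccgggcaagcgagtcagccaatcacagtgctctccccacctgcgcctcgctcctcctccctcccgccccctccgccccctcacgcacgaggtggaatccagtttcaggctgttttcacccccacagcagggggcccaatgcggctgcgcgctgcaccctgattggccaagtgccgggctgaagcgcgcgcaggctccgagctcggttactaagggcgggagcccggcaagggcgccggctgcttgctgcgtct
Mov10l1 (chr15:88982744-88983043, plus strand): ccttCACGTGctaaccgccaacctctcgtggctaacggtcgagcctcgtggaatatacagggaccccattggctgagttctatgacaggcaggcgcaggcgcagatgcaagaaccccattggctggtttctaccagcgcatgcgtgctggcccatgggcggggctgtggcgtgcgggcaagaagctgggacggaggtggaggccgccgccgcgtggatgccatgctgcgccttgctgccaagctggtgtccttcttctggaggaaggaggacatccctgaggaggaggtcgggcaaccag

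Of the 48 genes, 40 had a RefSeq promoter entry. A gene was counted for a motif if any of its RefSeq promoters held it on either strand. CACGTG was present for 15 of those 40 genes (37.5%), against 8.09% of 27025 genes with RefSeq promoters of the same length. TCCCGC, the E2F core, was present in 20 of 40 (50%, against 22%), AGNGGGC in 15 of 40 (37.5%, against 28.3%), and the CRE TGACGTCA in 0 of 40 (against 2.03%). None of the 4 motifs contains another. A match is a description and names no bound factor.

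In untreated cells these genes differed widely in level. Per kilobase of exon, averaged over the U means of the 4 lines, Tuba3a (an alpha-tubulin of testis) stood highest at 3668 normalized counts, followed by Tex19.1 (a mammal-specific protein that protects the germ line from retrotransposons) at 1938 and Sycp3 (an axial element protein of the synaptonemal complex) at 1217. Spo11, the nuclease that makes meiotic double-strand breaks, stood lowest at 0.238. Tuba3a shares nearly all of its coding sequence with Tuba3b, and Tex19.1 resembles Tex19.2, so that reads could be split between copies and both levels are uncertain. Among the piRNA pathway genes Mael stood at 529 and Tdrd9 at 10.8 per kilobase. The meiotic nuclease and the crossover genes Msh4 at 1.92 and Rnf212 at 1.98 were near the floor of the table, whereas cohesin genes Stag3 at 459 and Rec8 at 383 were well above it.

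The lines differed before any treatment. Against U of the CTCFL line, 21 of 45 genes tested were lower and 2 higher in U of the LCL line (limma, adjusted p under 0.01 and log2 fold change over 1, the calling rule used throughout), beside 25.3% of all genes called in either direction and 18.3% lower. In U of the CLC line 18 of 45 were lower and 0 higher, beside 27.1% of all genes called and 18.8% lower. In U of the CTCF line 3 of 45 were lower, namely Brdt, Piwil4 and Tuba3a, beside 3.19% of all genes. Of these calls, Piwil4 was lost with the replicate number as a block (log2 fold change -1.15) and without CTCFL U 3 (-0.95) or CTCF U 1 (-1.01), and Tuba3a with the block (-0.87) and without CTCFL U 1 (-0.997). Asz1 (a piRNA pathway protein of the germ granule) read 35, 58.3 and 63.9 in the CTCFL line, 1.14 and 1.85 in the LCL line and 0 and 1.19 in the CLC line. Sycp2 (an axial element protein) read 186, 201 and 219 in CTCFL U, 19.4 and 17.9 in LCL U and 16 and 21.4 in CLC U. Both genes were high in every CTCFL U library and low in every LCL and CLC U library, with no overlap. In the count table the LCL and CLC library names carry the tag 2i, and the CTCFL and CTCF names do not. The study describes a single medium for all clones, which contains serum, LIF, CHIR99021 and the MEK inhibitor PD0325901. The part of the tag was not tested. Line, clone and the scale of the normalization differ together here, and so does this tag for the LCL and CLC lines. These baselines cannot be told apart from them. The tag likewise parts the LCL and CLC lines from the others in the tests of differences between lines below. Comparisons below were therefore made within a line, or as a difference between within-line effects.

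Marker lists differed between the same U libraries. Of 6 markers of the 2-cell embryo (Zscan4 genes and their like, near-identical copies among which reads could be split), 4 were tested, and all 4 were lower in LCL U than in CTCFL U (median log2 fold change -3.93) and in CLC U (-2.87). Their summed level was 74.3 to 95.9 in CTCFL U, 0 to 2.46 in LCL U and 2.53 to 9.49 in CLC U, with 1, 4 and 2 of the 6 at 0 in every library. Of 10 tested differentiation markers 6 were lower in LCL U (median -2.32) and 5 in CLC U (-1.93), among them Gata6, a factor of primitive endoderm, at -4.75 and -4.81, and the list's sum was 5996 to 6329, 2978 to 3403 and 2732.6 to 2734.5. Pluripotency markers were higher for 1 of 10 in LCL U (Zfp42, 1.13) and 4 of 10 in CLC U (Esrrb at 1.22 the largest), with sums of 188508 to 205692, 266226 to 269798 and 309003 to 311849. Markers of fibroblasts were lower for 1 of 3 in LCL U and 3 of 3 in CLC U, and those of testis somatic cells for 1 and 3 of 4, with 1 higher in LCL U. In CTCF U none of these 5 lists had a called gene. The part of these differences in the germline baselines was not tested.

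**Figure D1:**
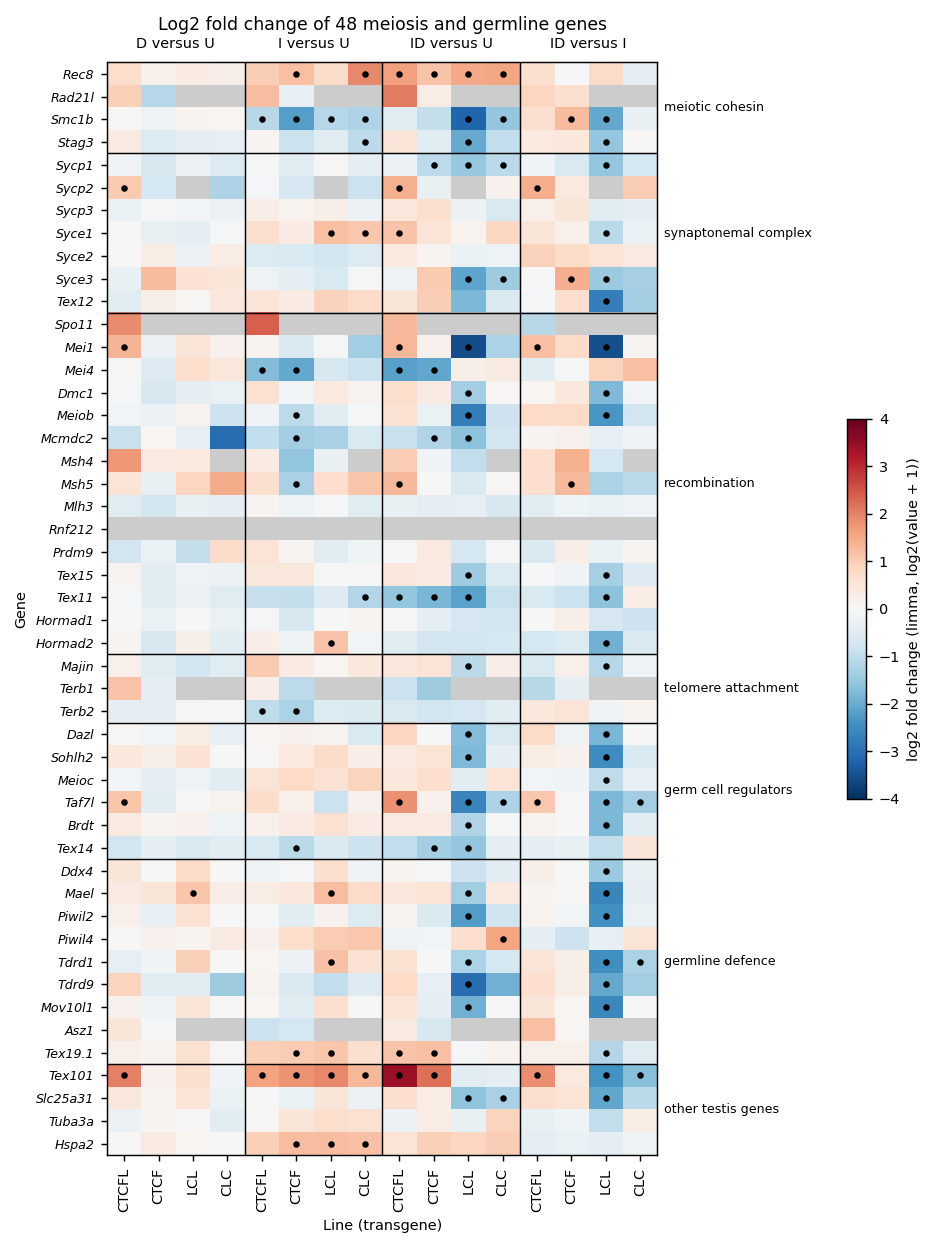
Log2 fold change of each gene (vertical axis, ordered by role) in the 16 within-line comparisons (horizontal axis), with colour for the size and direction, a dot where the call passed, and grey where the gene was not tested. The LCL ID versus I column holds 27 dots, all lower, whereas the D versus U columns of the CTCF and CLC lines hold 0.

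The most extensive change was in LCL cells without CTCF. Against I cells of the same line, ID cells had lower RNA of 27 of the 42 genes tested and higher RNA of 0, where 4.45% of all genes tested were called lower and 8.49% were called in either direction. The median log2 fold change was -1.49 over the 42 genes and 0.00 over all genes tested. The summed level of all 48 genes was 46794 to 46970 normalized counts in I and 22972 to 24018 in ID. By role, the calls were 2 of 3 meiotic cohesin genes, 4 of 6 synaptonemal complex genes, 6 of 13 recombination genes, 1 of 2 telomere attachment genes, 5 of 6 germ cell regulators, 7 of 8 germline defence genes and 2 of 4 other testis genes. The medians by role ran from -0.64 (telomere attachment) to -2.23 (germline defence). The 6 genes that were not tested in this line because of low values were Rad21l, Sycp2, Spo11, Rnf212, Terb1 and Asz1. Against U the ID cells had 22 genes lower and 1 (Rec8) higher of 42, beside 12.5% of all genes called in either direction and 6.78% lower. Both comparisons use the same ID libraries. Of the calls against U, Mcmdc2 was lost with no filter (-1.63) and without LCL U 1 (-1.53), LCL U 2 (-1.72) or LCL ID 2 (-1.35). Majin was lost without LCL U 1 (-0.95) or LCL ID 1 (-0.95), Mei1 without LCL U 2 (-2.995) and Tdrd1 without LCL ID 2 (-0.99). Of the genes that fell against I, Tex12, Tex101, Hormad2, Ddx4, Tex19.1, Syce1 and Meioc were not called against U, at log2 fold changes of -1.80, -0.47, -0.77, -0.84, -0.06, 0.13 and -0.44.

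**Figure D2:**
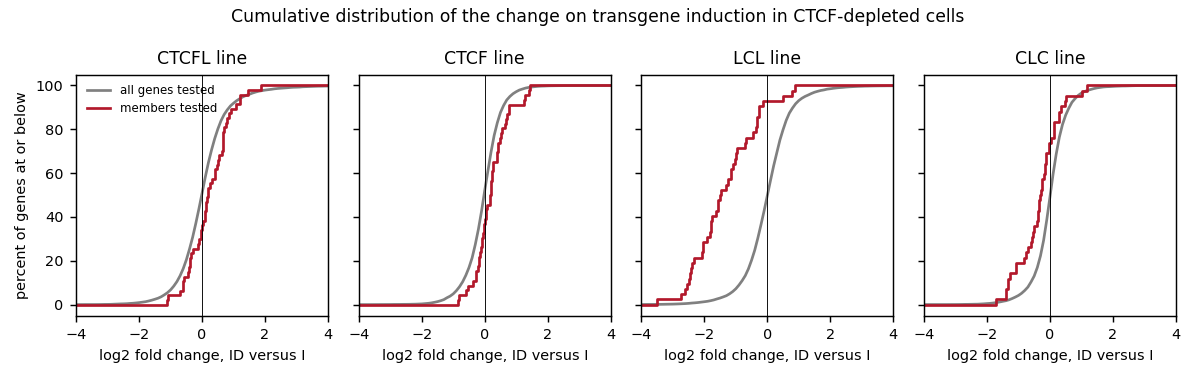
Cumulative percent of genes (vertical axis) below each log2 fold change of ID versus I (horizontal axis), for the meiosis and germline defence genes tested and for all genes tested, in the 4 lines. In the LCL line the curve of the 42 genes lies to the left, with a median of -1.49 against 0.00, whereas in the CTCFL line the medians were 0.19 and -0.01.

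Among the germline defence genes, Mov10l1, the helicase that feeds precursor RNA into the piRNA pathway, read 462 and 451 in LCL I and 71.2 and 81.9 in LCL ID (log2 fold change -2.56 ± 0.17 SE, adjusted p = 4.59e-10). Mael, a protein of piRNA biogenesis and transposon silencing, read 847 and 699 in I and 131 and 120.0 in ID (log2 fold change -2.61 ± 0.15 SE, adjusted p = 1.25e-10). For both genes every ID library lay below every library of the other 3 conditions of the line. Piwil2, the PIWI protein MILI, read 712 and 701 in I and 130.1 and 134 in ID (log2 fold change -2.41 ± 0.13 SE, adjusted p = 4.11e-11). Tdrd1, a Tudor-domain scaffold of germ granules, read 241 and 222 in I and 50.6 and 33.9 in ID (log2 fold change -2.45 ± 0.24 SE, adjusted p = 1.35e-07). Tdrd9, a helicase partner of the PIWI protein MIWI2, read 18.6 and 24.3 in I and 6.48 and 2.82 in ID (log2 fold change -2.06 ± 0.53 SE, adjusted p = 0.00328). In these 3 genes also the I and ID libraries did not overlap. The Tdrd9 call was lost without LCL I 2 (log2 fold change -1.88), without LCL ID 2 (-1.58) and with no filter on low values (-2.06). Ddx4 (the germ cell RNA helicase Vasa) and Tex19.1 fell by smaller amounts, at log2 fold changes of -1.47 and -1.17. Piwil4, which encodes MIWI2, was the 1 tested defence gene without a call, at 44.3 and 67.1 in I and 42.4 and 43.8 in ID (log2 fold change -0.33 ± 0.39 SE, adjusted p = 0.507).

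The germ cell regulators fell almost as a group. Sohlh2, a helix-loop-helix factor of early germ cell differentiation, read 959.8 and 1001 in LCL I and 229.6 and 134 in LCL ID (log2 fold change -2.47 ± 0.17 SE, adjusted p = 1.28e-09). Dazl, an RNA-binding protein needed for germ cells to enter gametogenesis, read 1618 and 1584 in I and 502 and 408 in ID (log2 fold change -1.82 ± 0.11 SE, adjusted p = 2.46e-10). The ID libraries of both genes lay below all other LCL libraries. Taf7l, an X-linked paralog of the TFIID subunit TAF7, read 75.1 and 72.8 in I and 25.3 and 16.9 in ID (log2 fold change -1.79 ± 0.28 SE, adjusted p = 3.59e-05). Brdt, the testis bromodomain protein, and Meioc, a partner of the meiotic RNA helicase YTHDC2, fell by log2 values of 1.80 and 1.02. The Meioc call was lost without LCL ID 1 (log2 fold change -0.96). Tex14, of the intercellular bridges, stood just outside the calling rule at a log2 fold change of -0.97.

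Among the cohesin genes, Smc1b, which encodes the meiotic SMC1 subunit, read 673 and 505 in U, 242 and 291 in I, 659.6 and 590.1 in D and 83.0 and 49.4 in ID of the LCL line (log2 fold change -2.03 ± 0.21 SE, adjusted p = 1.95e-07, ID against I). Stag3, the meiotic STAG subunit, read 3132 and 2948 in U, 2231 and 2143 in I and 811 and 681 in ID (log2 fold change -1.56 ± 0.10 SE, adjusted p = 4.59e-10). Both were lowest in ID, without overlap. Rec8, the meiotic kleisin, took another course, with 694 and 790.3 in U, 1248 and 1217 in I, 918 and 933 in D and 2006 and 2226 in ID. It was higher in ID than in U (log2 fold change 1.51 ± 0.11 SE, adjusted p = 7.13e-10) and did not pass the fold threshold against I (log2 fold change 0.78 ± 0.11 SE, adjusted p = 6.44e-06). The ID values of Rec8 lay above those of every other condition of the line. None of the 5 mitotic cohesin genes of a comparison list was called in LCL ID against I.

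Of the synaptonemal complex, Tex12 (a central element protein) read 23.3 and 29.1 in LCL I and 5.89 and 1.41 in LCL ID (log2 fold change -2.73 ± 0.70 SE, adjusted p = 0.00323). Syce3, of the same central element, read 22.7 and 30.7 in I and 7.65 and 9.89 in ID (log2 fold change -1.50 ± 0.43 SE, adjusted p = 0.00748). Both are low genes whose I and ID libraries did not overlap, but Tex12 lost its call without LCL I 1, LCL I 2 or LCL ID 2 (log2 fold change -2.89, -2.58 and -1.97) and Syce3 without LCL I 1, LCL I 2 or LCL ID 1 (-1.71, -1.29 and -1.33). With no filter on low values both lost the call (-2.73 and -1.50), and Syce3 also lost it with edgeR (-1.64). Sycp1, the transverse filament protein, and Syce1 also fell, by log2 values of 1.56 and 1.08. Sycp3 and Syce2 were not called, at -0.47 and 0.51.

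Among the recombination genes, Mei1, which is needed for meiotic double-strand breaks, read 19.8 and 23.5 in LCL I and 2.94 and 0 in LCL ID (log2 fold change -3.51 ± 0.71 SE, adjusted p = 4.51e-04). The ID values rest on very few reads, so that the fitted size depends on the pseudocount, but I and ID did not overlap. Meiob, a single-strand DNA-binding protein of meiotic repair, read 28.5 and 70.4 in I and 7.65 and 8.47 in ID (log2 fold change -2.34 ± 0.43 SE, adjusted p = 1.72e-04). Dmc1, the meiotic strand-exchange recombinase, read 316 and 382 in I and 89.5 and 116 in ID (log2 fold change -1.76 ± 0.20 SE, adjusted p = 6.33e-07). These genes were low in both ID libraries. Hormad2, a HORMA-domain protein of the chromosome axis, read 313 and 293 in I and 77.1 and 81.9 in ID (log2 fold change -1.92 ± 0.20 SE, adjusted p = 2.17e-07). Tex11, an X-linked recombination gene, read 378 and 395 in I and 147 and 103 in ID (log2 fold change -1.64 ± 0.18 SE, adjusted p = 4.84e-07). Tex15, which acts in recombination and in piRNA-directed silencing, read 585 and 482 in I and 238 and 188 in ID (log2 fold change -1.33 ± 0.16 SE, adjusted p = 1.85e-06). The ID values of these 3 genes lay below all other LCL values. By contrast Mei4, a partner of the break machinery, read 34.9 and 29.9 in I and 65.3 and 56.5 in ID (log2 fold change 0.89 ± 0.31 SE, adjusted p = 0.0251), and the crossover gene Mlh3, at 1259.7 and 1232 in I and 1151 and 925 in ID, was not called (log2 fold change -0.27 ± 0.12 SE, adjusted p = 0.0674). The remaining 5 tested genes without a call (Mcmdc2, Msh4, Msh5, Prdm9 and Hormad1) had log2 fold changes from -1.25 to -0.26.

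Of the telomere attachment genes, which tether chromosome ends to the nuclear envelope, Majin fell by a log2 value of 1.15, a call lost without LCL I 2 (log2 fold change -1.03), and Terb2 stood at -0.13. Of the other testis genes, Tex101, a surface glycoprotein of male germ cells, read 285 and 303 in LCL I and 54.2 and 56.5 in LCL ID (log2 fold change -2.39 ± 0.23 SE, adjusted p = 7.05e-08). Slc25a31, the germ cell ADP/ATP carrier, read 82.1 and 100.3 in I and 18.8 and 22.6 in ID (log2 fold change -2.08 ± 0.31 SE, adjusted p = 1.54e-05). Both were lower in each ID library than in each I library. Tuba3a and Hspa2 (a testis heat shock protein) were not called, at log2 fold changes of -0.998, just short of the fold threshold, and -0.37.

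**Figure D3:**
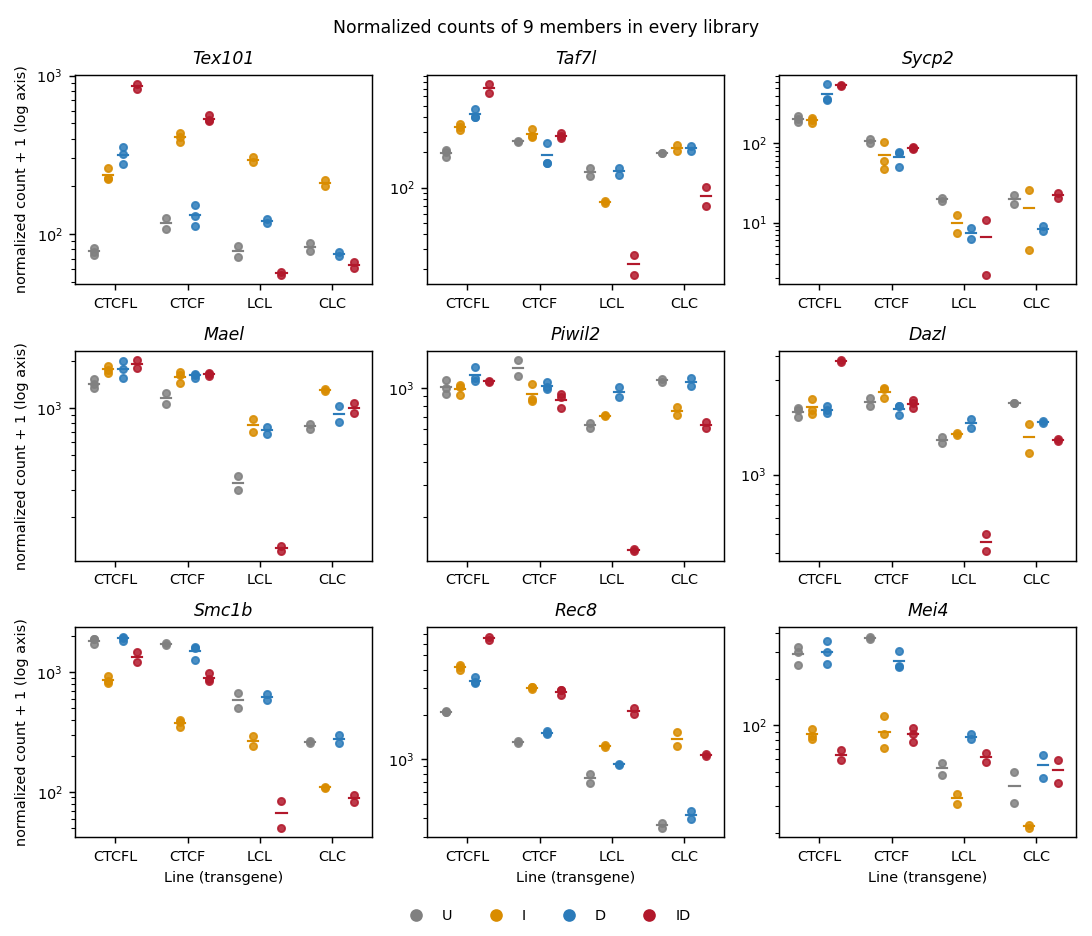
Normalized count plus 1 (vertical axis, log scale) of 9 genes in every library, by line and condition (horizontal axis), with points for libraries and a bar for the group mean. The LCL ID points of Mael, Piwil2, Dazl and Smc1b lie below the other LCL points, whereas the CTCFL ID points of Tex101, at 883 and 827, lie above the other CTCFL points.

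In the same LCL ID and I libraries 0 of 10 pluripotency markers were called, and their summed level was 229045 to 236631 in I and 237907 to 248431 in ID. The summed level of 7 markers of testis somatic cells was 92.6 to 107.6 in I and 37.1 to 55.1 in ID, and that of 6 fibroblast markers was 391 to 445 in I and 233 to 244 in ID, with 1 of 3 tested markers lower in each list (Acta2 and Thy1). In ID 1 marker of testis somatic cells and 3 fibroblast markers were at 0 in every library, whereas in I none was. These levels are small beside the summed level of the germline genes, and their part in the change was not tested.

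The change in LCL cells was also set against that in the other lines by a test of the difference itself, a comparison added after the values were seen. With ID minus I in the LCL line set against ID minus I in the CTCFL line, 26 of 45 genes were lower and 1 (Mei4) higher, beside 5.83% of all genes lower and 6.14% higher. Against the CTCF line 24 of 45 were lower and 0 higher (4.94% of all genes lower and 5.55% higher), and against the CLC line 16 were lower and 1 (Rec8) higher (4.07% and 3.26%). The Mei4 call was lost with edgeR (1.30), with DESeq2 (1.29) and without CTCFL ID 2 (1.23), LCL I 2 (1.23) or LCL ID 1 (1.23), and the Rec8 call without CLC I 2 (0.97). Of the 26, Msh5 was also lost with edgeR (-1.75), DESeq2 (-1.76) and the block (-1.83), Sycp2 with edgeR (-2.53) and without the filter on low values (-2.43), and Tex11 with TMM factors (-0.98), and each of these 3 was lost without several single libraries (Msh5 at -1.37 to -1.94, Sycp2 at -1.27 to -2.49, Tex11 at -0.77 to -0.996). Here too edgeR and DESeq2 lacked CTCFL I 2 and CTCFL ID 2. In the comparison with the CTCFL line 2 of 10 pluripotency markers were higher, and 2 of 3 fibroblast and 2 of 4 testis somatic cell markers were lower, and their part in the differences was not tested. The same 13 genes were lower in all 3 of these comparisons, namely Smc1b, Stag3, Mei1, Dmc1, Hormad2, Dazl, Sohlh2, Brdt, Ddx4, Mael, Piwil2, Tdrd1 and Mov10l1. The LCL libraries are common to the 3 comparisons, so these are not independent. Of the 13, Mov10l1 had the interaction of -3.03 ± 0.16 SE against the CTCFL line, -2.64 ± 0.15 SE against the CTCF line and -2.54 ± 0.16 SE against the CLC line (log2 units). For Mei1 these differences were -4.71 ± 0.63 SE, -4.28 ± 0.60 SE and -3.63 ± 0.66 SE. Hormad2 lost its call against the CLC line without CLC I 1 (-0.98), and Tdrd1 lost it without LCL ID 2 (-0.91).

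The other lines changed fewer of these genes in ID against I. In the CLC line Tex101, Taf7l and Tdrd1 were lower and none higher of 42 tested, beside 0.795% of all genes lower and 1.95% called, with a median log2 fold change of -0.30 against 0.01 over all genes. Tex101 read 199 and 218 in CLC I and 65.5 and 60.2 in CLC ID (log2 fold change -1.71 ± 0.19 SE, adjusted p = 0.00147), and Taf7l read 232 and 205 in I and 68.5 and 99.3 in ID (log2 fold change -1.39 ± 0.20 SE, adjusted p = 0.00344). Both were lower in ID in each library, but the Tex101 call was lost without CLC ID 1 (log2 fold change -1.77) and without CLC ID 2 (-1.65), that of Taf7l without CLC ID 1 (-1.12) or with the replicate number as a block (-1.39), and that of Tdrd1 without CLC ID 2 (-1.16). In the CTCF line 3 of 46 were higher (Syce3, Msh5 and Smc1b) and 0 lower, beside 5.06% of all genes called and 1.76% higher. Smc1b read 1699 and 1765 in CTCF U, 381, 399 and 351 in I and 878, 844 and 993 in ID (log2 fold change 1.26 ± 0.10 SE, adjusted p = 1.17e-06, ID against I). Its ID values lay between those of U and I, without overlap. Syce3 lost its call without CTCF I 1 (log2 fold change 0.95) and without each of the ID libraries (1.39 to 1.49). Against U, the ID cells of the CTCF line had Tex101, Tex19.1 and Rec8 higher and Mei4, Tex11, Tex14, Mcmdc2 and Sycp1 lower of 46, beside 14.9% of all genes called. Of these, Mcmdc2 was lost with no filter (log2 fold change -1.201) and without CTCF U 1, CTCF U 2, CTCF ID 2 or CTCF ID 3 (-0.88 to -1.33), and Sycp1 with the block (-0.98) or without CTCF ID 1 (-0.99). In the CTCF line all 4 tested 2-cell markers were lower in ID than in I (median -1.43), and 4 of 10 pluripotency markers were lower in ID than in U. The part of this was not tested. The CLC ID cells had Piwil4 and Rec8 higher and Smc1b, Syce3, Slc25a31, Taf7l and Sycp1 lower than U of 42, beside 6.47% of all genes, a count of 7 that ran from 2 (without CLC U 1, CLC U 2 or CLC ID 1) to 8 when single libraries were left out. With no filter the calls of Piwil4 (1.58) and Syce3 (-1.41) were lost, and Syce3 was lost also with the block, edgeR and DESeq2 (-1.41 to -1.45).

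In the CTCFL line the genes called after induction were few and higher. In D against U, Tex101, Mei1, Taf7l and Sycp2 rose and 0 fell of 47 tested, beside 5.90% of all genes called and 3.76% higher. The median log2 fold change was 0.11 over the 47 genes and 0.00 over all genes. Tex101 (chr7:24668007-24676675, minus strand) read 80.8, 76.1 and 73.2 in U, 275, 356 and 318 in D, 222, 258 and 224 in I and 883 and 827 in ID. It rose in D (log2 fold change 2.02 ± 0.16 SE, adjusted p = 3.45e-09), in I (log2 fold change 1.60 ± 0.16 SE, adjusted p = 4.29e-08) and most in ID (log2 fold change 3.46 ± 0.18 SE, adjusted p = 5.05e-13). The libraries of D, I and ID lay above all U libraries, and those of ID lay highest. Taf7l (chrX:134460118-134476490, minus strand) read 209, 201 and 180.0 in U and 401, 400.1 and 472 in D (log2 fold change 1.11 ± 0.13 SE, adjusted p = 1.55e-06). In ID it read 764 and 641, above I at 311, 346 and 330.3 (log2 fold change 1.09 ± 0.15 SE, adjusted p = 5.73e-06), a call lost without CTCFL ID 1 (log2 fold change 0.96). The D and ID libraries of Taf7l were above those of U and I.

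Mei1 (chr15:82069996-82126814, plus strand) read 60.6, 54.4 and 82.4 in CTCFL U, 124, 238 and 157 in D, 78.3, 51.9 and 88.7 in I and 183 and 149.8 in ID (log2 fold change 1.35 ± 0.28 SE, adjusted p = 7.23e-04, D against U). Its call in ID against I was lost without CTCFL I 2 (log2 fold change 0.98), CTCFL ID 1 (1.06) or CTCFL ID 2 (1.35), with no filter on low values (1.21), and with edgeR (1.12) and DESeq2 (1.11). The edgeR and DESeq2 fits lacked CTCFL I 2 and CTCFL ID 2. Sycp2, whose CTCFL summit sequence is given above, read 186, 201 and 219 in U, 359, 352 and 558 in D, 177, 198 and 210.0 in I and 531 and 545 in ID (log2 fold change 1.03 ± 0.17 SE, adjusted p = 5.78e-05, D against U). The D and ID libraries lay above all U and I libraries, with D 3 the highest. The Sycp2 call in D lay close to the fold threshold and was lost without CTCFL U 1 (log2 fold change 0.97) and without CTCFL D 3 (0.82), the shallowest library. In ID against I its log2 fold change was 1.46. The same 4 genes were those called higher in ID against I, beside 7.83% of all genes called and 3.94% higher, and 0 were lower.

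Against U the CTCFL ID cells had 8 genes higher (Tex101, Taf7l, Rec8, Sycp2, Mei1, Msh5, Tex19.1 and Syce1) and 2 lower (Mei4 and Tex11) of 47, beside 19.6% of all genes called. The Msh5 call was lost with edgeR (log2 fold change 1.24), with DESeq2 (1.24) and without CTCFL ID 1 (1.33) or CTCFL ID 2 (1.29), and that of Mei1 without CTCFL ID 1 (1.197). Both edgeR and DESeq2 lacked CTCFL ID 2 here. Rec8 read 2125, 2081 and 2076 in U, 4189.6, 4339 and 3969.5 in I, 3289, 3283 and 3584 in D and 6381 and 6681 in ID (log2 fold change 1.64 ± 0.07 SE, adjusted p = 6.35e-14, ID against U). Each condition of Rec8 lay apart from the others, in the order U, D, I and ID. Mei4 read 248, 323 and 301 in U, 94.2, 83.8 and 80.5 in I, 249.6, 351 and 299.6 in D and 67.7 and 58.3 in ID (log2 fold change -2.18 ± 0.22 SE, adjusted p = 2.87e-08, ID against U). Its libraries with IAA were low with or without CTCFL, and its D libraries overlapped those of U. In the same line 1 of 10 pluripotency markers (Tdgf1, log2 fold change -1.23) fell in D against U, 3 fell in ID against I (Fgf4, Tdgf1 and Tfcp2l1) and 5 fell in ID against U (median log2 fold change -1.12 over the 10, with Fgf4 at -2.51, Tfcp2l1 at -1.90 and Esrrb at -1.41). Their summed level was 188508 to 205692 in U and 99102 to 105047 in ID. Of 4 tested 2-cell markers 1 was higher in ID than in U (Usp17lc, 2.03) and 2 were lower in ID than in I. The fibroblast marker Col1a1 was higher in D and in ID than in U (1.58 and 1.93). The part of these changes in the germline values was not tested.

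The doxycycline effect on 2 of these genes differed from that in the CTCF line, where the wild-type CTCF transgene was induced. Of 45 genes tested for the difference of D minus U, Tex101 (a log2 difference of 1.86 ± 0.20 SE) and Taf7l (1.53 ± 0.23 SE) were higher in the CTCFL line, beside 3.50% of all genes called. Against the LCL line Sycp2, Tex101 and Taf7l were higher and Tdrd1 lower (5.06% of all genes), and against the CLC line Tdrd9 and Tex101 were higher (5.06%). Tex101 was thus the 1 gene higher in all 3, with differences of 1.39 ± 0.21 SE against LCL and 2.17 ± 0.21 SE against CLC, all of which share the CTCFL libraries. The Taf7l call against LCL was lost without LCL U 1 (0.99) or LCL D 2 (1.004). The Sycp2 call against LCL was lost with no filter on low values (2.45) and without each of the 10 libraries in turn (2.22 to 2.69), and Sycp2 stood near the floor in the LCL line.

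With CTCF present, doxycycline moved few of the genes in the other lines. In the CTCF line 0 of 46 were called by limma in D against U, beside 0.455% of all genes, with 22 at an unadjusted p under 0.05 and 1 called by DESeq2. In the CLC line 0 of 42 were called by limma, beside 0.600%, with 10 at an unadjusted p under 0.05. The share of all genes at that unadjusted p is not given here, so neither count is read as a response of these genes. In the LCL line 1 of 42 was called (Mael, higher), beside 1.91%. Mael read 298 and 366 in LCL U and 751 and 682 in LCL D (log2 fold change 1.12 ± 0.15 SE, adjusted p = 3.54e-05), so D libraries lay above U libraries, but the call was lost without LCL U 1 (log2 fold change 0.97). Mael was thus higher in D and lower in ID of the same line.

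Loss of CTCF alone (I against U) raised some of these genes and lowered others in each line. The calls were 1 higher and 3 lower of 47 in the CTCFL line (9.58% of all genes called), 4 higher and 7 lower of 46 in the CTCF line (10.9%), 7 higher and 1 lower of 42 in the LCL line (9.58%), and 4 higher and 3 lower of 42 in the CLC line (12.8%). Tex101 was higher in all 4 lines, at log2 fold changes of 1.60, 1.81, 1.92 and 1.33 (CTCFL, CTCF, LCL and CLC). Smc1b was lower in all 4, at -1.10, -2.20, -1.13 and -1.25. The lines do not share libraries, so each is a separate measurement, although all descend from 1 parental degron line. In the LCL line the Smc1b call was lost without LCL U 1 (-0.92) or LCL I 1 (-0.999). In the CLC line the Tex101 call was lost without CLC U 2 (1.25).

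The 2-cell markers rose in the same comparison, with all 4 tested higher in I than in U of the CTCFL line (median log2 fold change 2.52) and of the CTCF line (1.74). Their summed level was 74.3 to 95.9 in U and 403 to 491 in I of the CTCFL line. In the CTCF line it was 195 to 261 in U and 769 to 933 in I. In the LCL and CLC lines none of these markers was tested, because of low values, and the sums in I were 13.8 to 16.3 and 21.3 to 50.1. Pluripotency markers were lower for 1 of 10 in the CTCFL line (Fgf4, -1.17), for 3 in the CTCF line (Esrrb at -1.29, Fgf4 at -1.15 and Sox2 at -1.06) and for 0 in the LCL and CLC lines. Of the differentiation markers Gata6 was higher in the LCL line (1.22) and the CLC line (1.99), Cdx2 was higher in the CTCF line (2.26), and Sox1 was lower in the CTCF line (-1.43) and the CLC line (-1.80). The fibroblast marker Col1a1 was higher in the CLC line (1.95), and of the testis somatic cell markers Sox9 was higher and Acta2 lower in the LCL line (2.67 and -2.37). The part of these changes in the germline values was not tested.

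The Tex101 libraries of the CTCF line read 106 and 126 in U and 380.4, 434 and 409 in I, and those of the CLC line read 87.0 and 77.1 in U and 199 and 218 in I. Every I library was above every U library in each line. Smc1b in the CTCFL line read 1721, 1901 and 1906 in U and 841, 818 and 927 in I, again without overlap and in the other direction. Hspa2 passed as higher in the CTCF, LCL and CLC lines, Rec8 in the CTCF and CLC lines, and Tex19.1 in the CTCF and LCL lines, whereas Mei4 and Terb2 passed as lower in the CTCFL and CTCF lines. The Terb2 call in the CTCFL line, at a log2 fold change of -1.01, was lost with a pseudocount of 5 (-0.96), with no filter, with the block, with edgeR and DESeq2, and without 5 of the 6 libraries in turn (-0.70 to -1.12). For that line edgeR and DESeq2 lacked CTCFL I 2. The Tex19.1 call in the CTCF line was lost with TMM factors (log2 fold change 0.96), the block (0.99), edgeR (0.96) and DESeq2 (0.99), and without CTCF U 1 (0.98). In the test of the difference from the CTCFL line, Smc1b fell more in the CTCF line (beside 0.370% of all genes), Taf7l was lower and Tdrd1 higher in the LCL line (2.86%), and Stag3 was lower in the CLC line (3.63%).

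**Figure D4:**
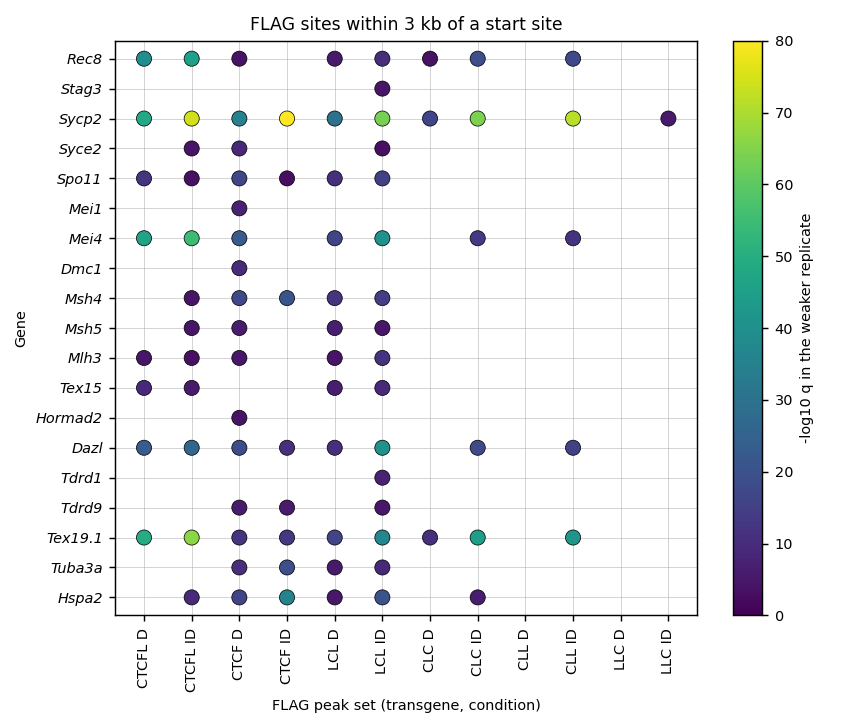
The 19 genes with a FLAG site within 3 kb of a start site in at least 1 set (vertical axis) against the 12 FLAG peak sets (horizontal axis), with colour for the -log10 q of the weaker replicate. Sycp2 holds a site in 10 sets and Stag3 in 1.

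In each FLAG set a minority of these genes carried a transgene peak at a promoter. A site was counted where both replicates of a FLAG set had a peak overlapping within 3 kb of a start site of the gene. CTCFL in D cells had such a site at 8 of the 48 genes (16.7%), beside 21.5% of 46503 annotated genes of the table, and in ID cells at 12 (25%, beside 20.7%). Replicate 2 of CTCFL in D, with 27971 peaks against 49243 in replicate 1, set the count of 8, which was 20 without it. CTCF had one at 16 in D (33.3%, beside 21.6%) and at 8 in ID (16.7%, beside 17.2%). LCL had one at 12 in D (25%, beside 21.0%) and at 16 in ID (33.3%, beside 26.6%). CLC had one at 3 in D (6.25%, beside 5.25%) and at 6 in ID (12.5%, beside 13.9%). CLL had one at 0 in D (beside 0.746%) and at 5 in ID (10.4%, beside 10.2%), and LLC at 0 in D (beside 1.07%) and at 1 in ID (2.08%, beside 3.15%). The genes of the table that were tested for RNA had sites more often than these genes in each set, for example 43.4% for CTCFL in D. For all 8 RAD21 sets 0 of the 48 genes had a region in both replicates, and the lists of some replicates were very short (for CTCFL in D, 20467 regions in replicate 1 and 238 in replicate 2), so that this says little.

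The 8 genes with a CTCFL site in D were Dazl, Mei4, Mlh3, Rec8, Spo11, Sycp2, Tex15 and Tex19.1. At Mei4 the site (chr9:81863132-81864407) had a -log10 q of 60.1 and 46.3 in the replicates, and at Dazl (chr17:50292401-50293627) 30.4 and 23.1. The middle of the Mei4 site lay 60 bases after the nearest start site and that of Dazl 122 bases before it. At Mlh3 the site (chr12:85270420-85270838) was weaker, at 6.44 and 4.43. Of the 4 genes raised in CTCFL D cells only Sycp2 had a CTCFL site there, as did 7 of 43 tested genes without a call. Spo11, one of the 7, read 5.39, 2.96 and 0 in CTCFL U and 3.95, 11.8 and 18.7 in D (log2 fold change 1.88 ± 0.94 SE, adjusted p = 0.128), at the floor of the table. Tex19.1 read 2495, 2246 and 2231 in U and 2687, 2785 and 2611 in D (log2 fold change 0.21 ± 0.07 SE, adjusted p = 0.0196), and Tex15 read 902, 949.6 and 1031 and 1002, 969 and 1154 (log2 fold change 0.11 ± 0.10 SE, adjusted p = 0.415). None of the 3 passed the calling rule, and D libraries lay above U libraries for Tex19.1 but overlapped them for Tex15. Neither Tex101 nor Taf7l had a FLAG site in any set, and Mei1 had one in 1 set, that of CTCF in D cells. Of the 27 genes that fell in LCL ID against I, 6 had an LCL site in ID cells (Dazl, Stag3, Tdrd1, Tdrd9, Tex15 and Tex19.1), as did 8 of the 15 other genes tested.

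The E-box shown in the Tex12, Mael and Mov10l1 promoters was also counted over the genes that fell. CACGTG was present in 11 of the 22 genes that fell in LCL ID against I and had a RefSeq promoter, and in 3 of the 13 other tested genes with one. For AGNGGGC the counts were 7 of 22 and 5 of 13, and for TCCCGC 10 of 22 and 8 of 13. No test was made of these counts.

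The list of other germline and meiosis genes, chosen with earlier results known, was read in the same LCL comparison. Of 27 tested, 5 were lower and 1 higher in ID against I, with a median log2 fold change of -0.21, beside 4.45% of all genes lower and 8.49% called. The summed level of all 38 genes of this list was 31541 to 31616 in I and 36264 to 40132 in ID, so that it rose. Tdrkh, a Tudor-domain partner of PIWI proteins, had a log2 fold change of -2.38, Fkbp6, a piRNA co-chaperone, -1.55, and Tdrd12, a piRNA pathway helicase, 1.44. Among 21 repressors of germline genes Mga, the DNA-binding scaffold of the PRC1.6 complex, was the 1 gene called, lower in ID than in I (log2 fold change -1.10).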

How the data were processed

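RNA-seq libraries (poly-A, strand-directional) and ChIP-seq libraries were analysed as deposited. The authors mapped RNA reads to GRCm38 and counted them per gene, and the deposited values are normalized counts, a signal with 2 decimals. In 36 of 38 libraries the values were whole multiples of 1 step, as counts divided by 1 size factor would be. No such step was recovered for CTCFL I 2 and CTCFL ID 2, and whether these were processed otherwise is not known. The processing notes name Trim Galore 0.4.4, HTSeq, Bowtie2, SAMtools 1.3 and deepTools, with no role given. For ChIP-seq the authors called MACS peaks at q 0.05 in each replicate, and the deposited files hold a fold enrichment ratio, a -log10 p and -log10 q and a score for each peak. From these, the -log10 q, fold and positions were used here. Every column of the count table was mapped to a sample (0 were not).

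The deposited values were put on a log2 scale after adding 1 and tested by limma 3.58.1 (R 4.3.3, eBayes with a trend), in 1 fit per line over genes with a mean of at least 10 and, for differences between lines, in 1 fit of all 38 libraries, with Benjamini-Hochberg adjustment over all genes tested. A fold change on this scale understates the change of low genes. A gene was called at an adjusted p under 0.01 with a log2 fold change over 1 in either direction. Low values left 42 to 47 of the 48 genes tested within a line. Whole reads were recovered from the steps of the values in 36 of 38 libraries (100% of values up to 500 reads whole within 0.1), and edgeR 4.0.16 and DESeq2 1.42.0 were run on them as alternatives. Left out of these alternatives were the 2 others, CTCFL I 2 and CTCFL ID 2. CTCFL ID was thus read there from CTCFL ID 1 alone. A CTCFL ID call lost with edgeR or DESeq2 therefore cannot be told apart from the loss of CTCFL ID 2. In data simulated for CTCFL D against U (16734 genes) 49.5% of genes changed 2-fold and 99% of genes changed 4-fold were called, and for LCL ID against I (15177 genes) 34.7% and 100%. A 2-fold change lies at the fold threshold itself. The simulation gave every gene the same dispersion, so these rates do not describe low genes with a wider spread.

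A promoter site was a region with a peak in both replicates within 3 kb of a start site of GRCm38. Tables and figures were made with Python 3.11.15, pandas 2.3.3, numpy 2.4.6, pysam 0.24.0 and matplotlib 3.10.9. The 48 genes and all lists were chosen with earlier results of these data known, and the comparison of ID minus I between lines was added after values were seen. Values per library were given for the 20 genes with the largest log2 fold change among those called within a line and for genes with a CTCFL site in D, and at most 3 genes were named from each other list. Asz1 and Piwil4 were given per library beside these, chosen after their values were seen. The counts of genes were recomputed with another pseudocount, without the filter, with TMM factors, with the replicate number as a block, with edgeR and DESeq2, and without each library in turn.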

Additional observations from a re-analysis of the deposited data

Results flagged for a closer look

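The following differences between lines passed the interaction test of limma in 1 fit of all libraries (adjusted p under 0.01 and a log2 difference over 1), and are given as values only. For the doxycycline effect (D minus U), 2 genes differed between the CTCFL line and the CTCF line, namely Tex101 (log2 difference 1.86) and Taf7l (1.53), both higher in the CTCFL line. Against the LCL line 4 genes differed, namely Sycp2 (2.45), Tex101 (1.39) and Taf7l (1.09), higher in the CTCFL line, and Tdrd1 (-1.27), lower in it. Against the CLC line 2 genes differed, namely Tdrd9 (2.33) and Tex101 (2.17).

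For the effect of IAA (I minus U), 1 gene differed between the CTCF and CTCFL lines, Smc1b (-1.10, lower in the CTCF line), 2 between the LCL and CTCFL lines, Taf7l (-1.60) and Tdrd1 (1.09), and 1 between the CLC and CTCFL lines, Stag3 (-1.14). Without CTCF U 2 the Smc1b difference was -1.08 and not called. The Tdrd1 call was lost without CTCFL U 2 (0.95), LCL U 2 (0.93) or LCL I 1 (1.03).

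For the transgene effect in depleted cells (ID minus I), the LCL line differed from the CTCFL line in 27 genes, from the CTCF line in 24 and from the CLC line in 17. The 13 genes lower in the LCL line in all 3 comparisons had, as the smallest of their 3 log2 differences, -1.72 for Smc1b, -1.60 for Stag3, -3.63 for Mei1, -1.64 for Dmc1, -1.22 for Hormad2, -1.62 for Dazl, -1.86 for Sohlh2, -1.38 for Brdt, -1.18 for Ddx4, -2.21 for Mael, -2.16 for Piwil2, -1.19 for Tdrd1 and -2.54 for Mov10l1.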

How the results depend on the processing

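Of 447 recomputed counts 411 stayed within 1.5 times the reported count, and of the single-gene calls 2788 were kept, 173 lost the threshold and 0 changed sign. The count of genes lower in LCL ID against I was 24 to 27 under the other settings and 23 to 26 without single libraries. With a pseudocount of 5, 4 genes differed in the doxycycline effect between the CTCFL and CTCF lines, 4 between the CTCFL and CLC lines, and 2 in the IAA effect between the CTCF and CTCFL lines. With edgeR the first of these was 4, and with DESeq2 the 3 were 5, 4 and 2, and CTCF D against U gave 1. Within 1 kb of a start site 9 genes had a CTCF site in D and 4 in ID, and at a -log10 q of at least 5, 7 had a CTCFL site in ID. Causes were not tested, beyond the narrower window and the stricter threshold themselves.

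Without single libraries the counts ran from 2 to 5 in CTCFL ID against I (2 without CTCFL ID 1), 0 to 1 in LCL D against U (0 without LCL U 1), 2 to 8 in CLC ID against U (2 without CLC U 1, CLC U 2 or CLC ID 1) and 1 to 3 in CLC ID against I (lower without CLC ID 1 or CLC ID 2). For the doxycycline effect they ran from 2 to 4 against the LCL line (moved without LCL U 1 or LCL D 2) and 2 to 4 against the CLC line (moved without CTCFL D 1). For the IAA effect they ran from 0 to 2 for the CTCF line (moved without CTCF U 1, CTCF U 2 or CTCF I 1), 1 to 3 for the LCL line (LCL I 1) and 1 to 2 for the CLC line (CLC I 1). With 1 replicate of a FLAG set left out, the genes with a site were 8 to 20 for CTCFL D, 0 to 5 for CLL D, 0 to 1 for LLC D and 1 to 2 for LLC ID. For RAD21 they were 0 to 10 in CLC D, 0 to 1 in CLC ID, 0 to 2 in CTCF D, 0 to 2 in CTCFL D, 0 to 6 in LCL D and 0 to 1 in LCL ID.

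With the replicate number as a block, 27 genes were called in LCL ID against I, 4 in CTCFL D against U and 9 in CTCF I against U, and no count moved by over 1.5 times. Single calls lost under it were Terb2 in CTCFL I against U (-1.01), Meiob (-0.96) and Tex19.1 (0.99) in CTCF I against U, Sycp1 in CTCF ID against U (-0.98), Syce3 in CLC ID against U (-1.41), Taf7l in CLC ID against I (-1.39), Piwil4 (-1.15) and Tuba3a (-0.87) in U of the CTCF line, Msh5 (-0.89) and Prdm9 (-1.06) in U of the LCL line, and Msh5 in ID minus I of the LCL against the CTCFL line (-1.83). Libraries of the same number did not deviate together on average, with mean correlations from -0.04 to 0.01, so no pairing by number was seen. Single pairs of the same number ran from -0.297 to 0.162 in the CTCF line and from -0.253 to 0.056 in the CLC line. The pair CTCF U 2 with CTCF I 1 stood at 0.297, the mirror of CTCF U 1 with CTCF I 1 at -0.297. CTCF U holds 2 libraries, so centring on their mean makes these opposites, and they are not separate values. The fit of group means does not model deviations that libraries share. Depth limits the genes near the floor (Spo11, Rnf212, Msh4, Rad21l, Asz1, and Sycp2 in the LCL and CLC lines), which within those lines were not tested or whose changes after induction or IAA were not detectable at this depth. The study does not say how many clones of each line were sequenced. LCL and CLC groups hold 2 libraries, so a left-out library leaves 1 that is assumed to vary like the other groups.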

Other observations

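A list of other germline and meiosis genes moved in both directions in the CTCFL line. In D against U 3 of its 38 genes were higher and 3 lower, beside 5.90% of all genes tested called and 3.76% higher. Among them Tex19.2 (a paralog of Tex19.1) had a log2 fold change of 2.07. Figla (an oocyte helix-loop-helix factor) stood at 2.00 and Nanos3 (an RNA-binding protein of primordial germ cells) at -3.02. In ID against I, Gtsf1 (a PIWI partner protein) stood at 2.77 and Tdrd12 at 2.52. Mitotic cohesin genes Stag1 and Stag2 had log2 fold changes of -1.25 and -1.15 in CTCFL ID against U. In LCL ID against U, Dnmt3l (a regulator of DNA methylation in germ cells) stood at -1.62, Dnmt3a (a DNA methyltransferase) at -1.32 and Mga at -1.02. Each of these genes passed the limma calling rule in its comparison.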
